A study of Mus musculus with 4 samples.

Results

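The neuronal genes of the jaw nerves are 8 genes of the neuron's cytoskeleton, growth cone, RNA handling and synapse: Tubb3, Prph, Nefl, Nefm, Stmn2, Gap43, Elavl4 and Snap25. They were taken by symbol from the deposited gene table, where all 8 were found among 24972 rows. All 8 also passed the filter on low values (a mean of 1 or more across libraries), as did 17979 genes in all. Polyadenylated RNA was sequenced from mandibular dental arches, the piece of the lower jaw that bears the teeth, dissected from mice at embryonic day 17.5. One group was Ascl5Mut/Mut, homozygous for a variant of Ascl5, a basic helix-loop-helix transcription factor gene (2 libraries, with the sample codes 18 and 14, called mutant here). The other was Ascl5WT/WT (2 libraries, codes 15 and 20, called wild type). The labels give no strain, sex or treatment, and say nothing of the variant's effect on the gene or of pooling of embryos. They name the libraries as separate samples and no more. P-values therefore reflect the spread among these samples, part of which may be technical.

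The lower jaw is supplied by the mandibular branch of the trigeminal nerve, whose sensory neuron bodies lie in the trigeminal ganglion, while the motor neuron bodies that drive the jaw muscles lie in the brainstem. Small parasympathetic ganglia lie beside the salivary glands, and the labels do not say whether the dissected piece held any. Axons carry little mRNA compared with neuron bodies. In bulk tissue fewer cells of a type and less RNA per cell cannot be told apart.

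Values are normalized counts made by the authors, and they summed to between 22134483 and 22578580 per library. The commonest low value was between 0.950 and 1.05 in each library, so 1 normalized count is about 1 read if that low value stands for a single read. Ascl5 itself was at 10.6 and 12.1 in mutant libraries 18 and 14, against 21.8 and 37.3 in wild-type libraries 15 and 20. Genes of the labelled tissue were present in every library: the dentin gene Dspp was between 629 and 1910 and the enamel matrix gene Ambn between 540 and 2491. Library 14 stood apart from the other 3. The salivary gland genes Bpifa2 and Muc19 were at 1009 and 214 in library 14, against 0 and 0.953 in mutant library 18, 0 and 1.04 in wild-type library 15, and 0 and 0 in wild-type library 20. Xist, which is made from the inactive X, was at 7.64 and 5.005 in mutant libraries 18 and 14, against 38619 in wild-type library 15 and 12.7 in wild-type library 20, so that library 15 differed in sex from the rest.

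The 8 genes were all highest in mutant library 14. Mutant library 18 lay between the wild-type libraries for Nefl, Nefm and Gap43, below both for Tubb3, Prph and Snap25, and above both for Stmn2 and Elavl4. Their sum was 1552 normalized counts in mutant library 18 and 4227 in mutant library 14, against 1543 in wild-type library 15 and 1703 in wild-type library 20. As a share of the library's total this was 0.00690% and 0.0191% in the mutant libraries and 0.00690% and 0.00754% in the wild-type libraries. Mutant library 18 was thus level with wild-type library 15. Of all tested genes, 25.9% were highest in library 14, against 8 of the 8 neuronal genes.

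**Figure D1:**
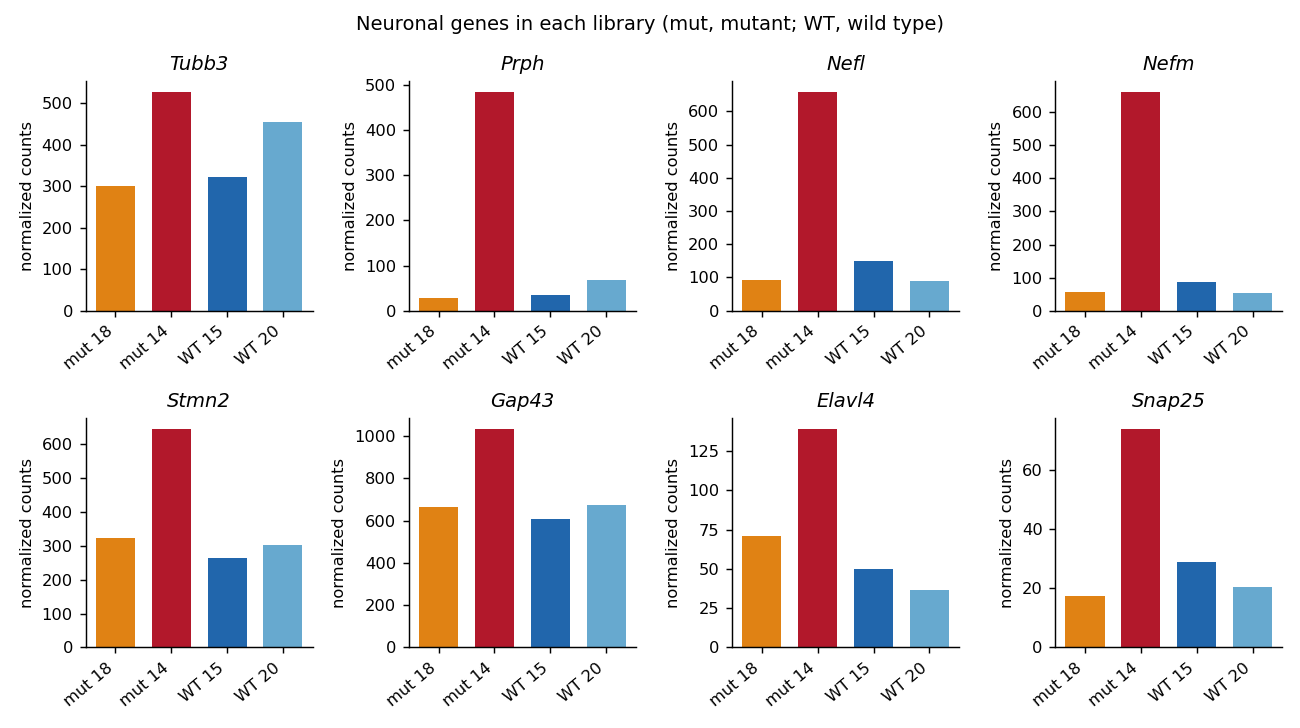
Normalized counts (y axis, from 0, with its own scale in each panel) of the 8 neuronal genes in the 4 libraries (x axis), 1 bar per library. Mutant library 14 has the tallest bar in every panel, by a wide margin for Prph, Nefl and Nefm and a narrow one for Tubb3.

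Prph, Nefl and Nefm encode intermediate filament proteins, which fill the axon and set its calibre. Peripherin, the product of Prph, is typical of peripheral neurons, while Nefl and Nefm give the light and medium neurofilament subunits. These 3 genes had the widest gap between library 14 and the other libraries. Prph (chromosome 15, 99055174 to 99058978, plus strand, GRCm38) had 27.7 and 485 normalized counts in mutant libraries 18 and 14, against 34.8 and 68.5 in wild-type libraries 15 and 20. The genotypes overlapped, since mutant library 18 was the lowest of all 4 libraries. Its log2 fold change was 1.25 (SE 1.11), which did not pass (limma, adjusted p = 0.9999), and without library 14 it turned to -0.80. Library 14 held 7.09 times the highest of the other 3 libraries.

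Nefl (chromosome 14, 68083863 to 68089095, plus strand) had 92.6 and 659 normalized counts in mutant libraries 18 and 14, against 149 and 89.9 in wild-type libraries 15 and 20. Mutant library 18 lay between the wild-type libraries. Its log2 fold change was 1.09 (SE 0.77; limma, adjusted p = 0.9999), and -0.32 without library 14. Nefm (chromosome 14, 68082590 to 68124846, minus strand) had 56.3 and 661 in mutant libraries 18 and 14, against 86.4 and 53.7 in wild-type libraries 15 and 20. As with Nefl, mutant library 18 lay between the wild-type libraries, and wild-type library 15 was above wild-type library 20. The log2 fold change of Nefm was 1.50 (SE 0.95; limma, adjusted p = 0.9999), and -0.27 without library 14. In library 14 Nefl was at 4.41 times and Nefm at 7.66 times the highest of the other 3 libraries. In GENCODE M21 the span of Nefm runs over Nefl on the opposite strand, while in the RefSeq annotation the spans are apart. The library kit keeps strand, but the sources used here do not say whether the counting used it, so some reads of this pair may be shared.

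Nefh, the heavy neurofilament subunit that is made later than the others, was among the further neuronal genes listed for comparison. It was at 13.4 and 55.5 in mutant libraries 18 and 14, against 5.19 and 1.99 in wild-type libraries 15 and 20, with no overlap between genotypes. Its log2 fold change of 2.89 (SE 0.81) did not pass (limma, adjusted p = 0.685). Together Prph, Nefl and Nefm made up 11.4% and 42.7% of the summed counts of the 8 genes in mutant libraries 18 and 14, and 17.5% and 12.5% in wild-type libraries 15 and 20.

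Tubb3 encodes the neuronal class of beta-tubulin, a subunit of the microtubules that run along axons. It (chromosome 8, 123411424 to 123422015, plus strand) had 301 and 527 normalized counts in mutant libraries 18 and 14, against 323 and 456 in wild-type libraries 15 and 20. The mutant libraries enclosed the wild-type ones, and library 14 was only 1.16 times the highest of the others. Its fitted log2 fold change was 0.05 (SE 0.29; limma, adjusted p = 0.9999), and it turned to -0.35 without mutant library 14 and to -0.19 without wild-type library 15. Beta-tubulin genes share much of their coding sequence, and how the authors' counting treated such reads is not given in the sources used here, so the level of Tubb3 is uncertain.

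The start regions of 3 of the 8 genes, Tubb3, Prph and Elavl4, matched the RefSeq promoter table (GRCm38.p6, 250 bases before to 50 bases after the start). These 3 are shown because they were the ones matched. In library 14 Prph was near the top of the 8 in its gap to the other libraries, and Tubb3 at the bottom. The sequences were searched for CAGCTG, the kind of E-box that Ascl factors are known to bind, which reads the same on both strands and is one form of the general E-box CANNTG. Capitals mark it. The windows are chr15:99054924-99055223 (plus strand) for Prph, chr8:123411303-123411602 (plus strand) for Tubb3 and chr4:110287478-110287777 (minus strand) for Elavl4.
Prph: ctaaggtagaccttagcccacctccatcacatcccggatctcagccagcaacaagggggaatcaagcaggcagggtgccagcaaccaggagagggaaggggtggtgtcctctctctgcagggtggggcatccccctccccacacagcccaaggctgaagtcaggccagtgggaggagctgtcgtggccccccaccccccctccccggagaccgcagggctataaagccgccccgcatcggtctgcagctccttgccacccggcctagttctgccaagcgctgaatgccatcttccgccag
Tubb3: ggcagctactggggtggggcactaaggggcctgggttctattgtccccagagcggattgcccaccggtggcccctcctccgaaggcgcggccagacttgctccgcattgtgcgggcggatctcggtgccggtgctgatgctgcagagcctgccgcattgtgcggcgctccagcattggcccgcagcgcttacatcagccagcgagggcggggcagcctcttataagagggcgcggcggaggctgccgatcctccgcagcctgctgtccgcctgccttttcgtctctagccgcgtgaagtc
Elavl4: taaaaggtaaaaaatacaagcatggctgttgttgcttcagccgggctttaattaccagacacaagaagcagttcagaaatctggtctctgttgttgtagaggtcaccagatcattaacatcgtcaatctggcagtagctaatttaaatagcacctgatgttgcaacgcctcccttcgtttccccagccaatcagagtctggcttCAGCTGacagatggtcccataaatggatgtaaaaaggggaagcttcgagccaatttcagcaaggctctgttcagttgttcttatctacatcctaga
Neither the Prph nor the Tubb3 window holds CAGCTG or any other CANNTG. The Elavl4 window holds CAGCTG once, beginning at position -46 counted from the start site. Elavl4 has 4 windows in the table, of which 2 hold CAGCTG, and these 2 overlap and share the same copy. The window printed is among these 2. The window at the start of the gene's full span (chr4:110351862-110352161, minus strand) holds 0 CAGCTG and 0 CANNTG. Of all 32851 windows in the table, 16.3% hold CAGCTG and 72.3% hold CANNTG. A match is a description of the letters and not a site of binding.

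Gap43 and Stmn2 belong to the growing axon. Gap43 encodes a membrane protein of the growth cone, and Stmn2 a stathmin that regulates microtubule turnover there. Gap43 (chromosome 16, 42248442 to 42340651, minus strand) had 664 and 1036 normalized counts in mutant libraries 18 and 14, against 606 and 676 in wild-type libraries 15 and 20. Mutant library 18 lay inside the wild-type range. The log2 fold change was 0.37 (SE 0.22; limma, adjusted p = 0.9999), and 0.05 without library 14. Stmn2 (chromosome 3, 8509360 to 8561606, plus strand) had 323 and 646 in mutant libraries 18 and 14, against 265 and 302 in wild-type libraries 15 and 20. For Stmn2 both mutant libraries were above both wild-type libraries, with library 18 close to wild-type library 20. The log2 fold change was 0.69 (SE 0.31), which did not pass (limma, unadjusted p = 0.0564, adjusted p = 0.9999) and was 0.19 without library 14.

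Elavl4 encodes HuD, a neuronal RNA-binding protein that stabilizes messages of differentiating neurons. It (chromosome 4, 110203722 to 110351909, minus strand) had 70.7 and 139 normalized counts in mutant libraries 18 and 14, against 50.1 and 36.5 in wild-type libraries 15 and 20. Both mutant libraries were above both wild-type libraries, and mutant library 18 stood above the wild-type ones more clearly here than in any other of the 8 genes, at 1.63 times the wild-type mean. The log2 fold change was 1.20 (SE 0.39), with the smallest p of the 8 (limma, unadjusted p = 0.0165), and did not pass over all genes (adjusted p = 0.9007). Without library 14 the log2 fold change was 0.72.

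The relatives Elavl2 and Elavl3 were also listed. Elavl2 was at 38.2 and 102 in mutant libraries 18 and 14, against 44.3 and 37.8 in wild-type libraries 15 and 20, and Elavl3 at 14.3 and 104, against 22.9 and 15.9. In both relatives mutant library 18 was not above the wild-type libraries, unlike Elavl4, and library 14 was the highest.

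Snap25 encodes a SNARE protein of the presynaptic membrane that drives vesicle fusion. It was the gene with the lowest counts of the 8. Snap25 (chromosome 2, 136713453 to 136782428, plus strand) had 17.5 and 73.8 normalized counts in mutant libraries 18 and 14, against 28.7 and 20.4 in wild-type libraries 15 and 20. Mutant library 18 was the lowest of the 4 libraries and library 14 the highest. Its fitted log2 fold change was 0.57 (SE 0.65; limma, adjusted p = 0.9999), and -0.46 without library 14.

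**Figure D2:**
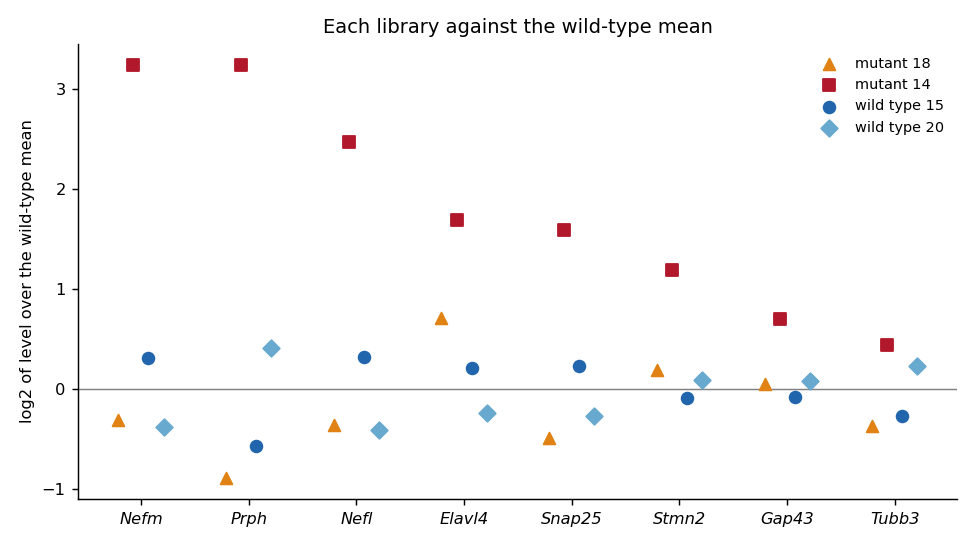
Log2 of the level of each of the 8 genes over its wild-type mean (y axis), 1 point per library, with genes ordered by library 14 (x axis). Mutant library 14 (squares) falls from over 3 for Nefm and Prph to under 0.5 for Tubb3, while mutant library 18 (triangles) is above both wild-type libraries only for Elavl4 and Stmn2.

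None of the 8 genes passed in the comparison of mutant with wild type. Over all 17979 genes tested with limma and Benjamini-Hochberg adjustment, 2 passed the threshold of 0.05 (0.0111%), neither of them one of the 8, and 0 passed without either mutant library. At an unadjusted p under 0.05 there was 1 of the 8, Elavl4, against 4.27% of all genes (3.12% with mutant higher), and no other tool was run. For a single gene, the smallest p that exact two-sided permutation can give with 2 libraries a genotype is 0.333. All 8 fitted log2 fold changes were above 0, as were 50.6% of all tested genes. Their median was 0.89, against 0.0025 over all tested genes.

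That median depended on library 14. Without it the median of the 8 genes was -0.30, with 3 of the 8 above 0, and without mutant library 18 it was 1.64. The genotypes did not overlap in 2 of the 8 genes, Stmn2 and Elavl4, both with mutant higher. Of all tested genes 27.4% did not overlap, 13.4% with mutant higher. With mutant library 18 left out all 8 genes were above both wild-type libraries, and with wild-type library 15 left out 4 were above the remaining one. With mutant library 14 left out 3 of the 8, Tubb3, Prph and Snap25, were below both wild-type libraries. In such fits the lone library of a genotype is assumed to vary like the other genotype's pair.

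The gap between library 14 and the rest was graded across the 8 genes. Relative to the highest of the other 3 libraries it was 7.66-fold for Nefm, 7.09-fold for Prph, 4.41-fold for Nefl, 2.57-fold for Snap25, 2.001-fold for Stmn2, 1.97-fold for Elavl4, 1.53-fold for Gap43 and 1.16-fold for Tubb3. At a mark of 2-fold, chosen after the values were seen, 5 of the 8 lay beyond it and 2.83% of all tested genes did. Stmn2 was just inside that mark and Elavl4 just outside.

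**Figure D3:**
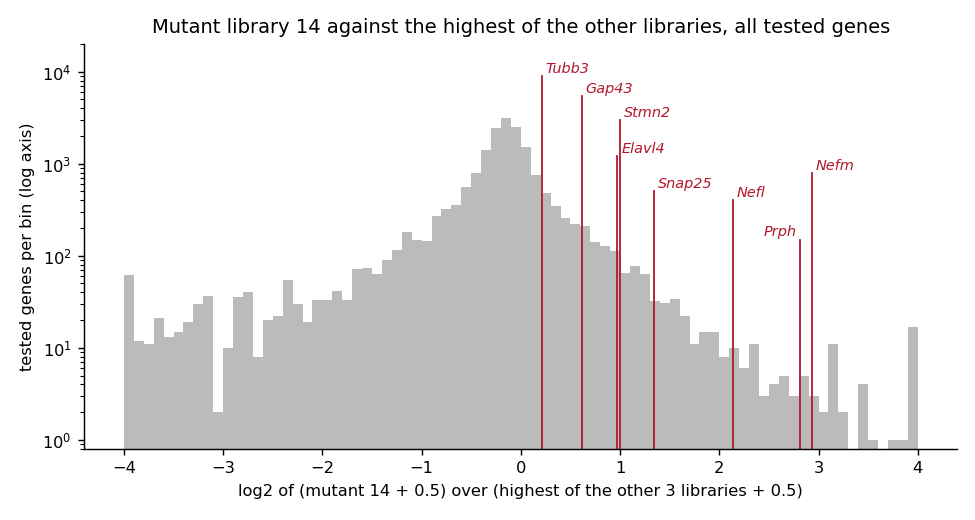
Histogram of all tested genes by the log2 ratio of mutant library 14 to the highest of the other 3 libraries, each with 0.5 added (x axis), with the number of genes per bin on a log axis (y axis). Ratios beyond 4 on either side are drawn in the end bins. Red lines mark the 8 neuronal genes, all to the right of 0, with Nefm and Prph near 3.

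Per kilobase of the longest coding transcript in GENCODE M21, Gap43 had the highest level of the 8 genes in every library. It was at 467 and 729 normalized counts per kilobase in mutant libraries 18 and 14, against 427 and 476 in wild-type libraries 15 and 20. Tubb3 and Stmn2 took the next 2 places in every library. Their order differed, with Stmn2 ahead only in library 14, at 312 per kilobase to 282 for Tubb3. Prph was at 14.9 and 260 per kilobase in mutant libraries 18 and 14, against 18.7 and 36.7 in wild-type libraries 15 and 20. In library 14 that was close to Tubb3, while in library 18 it was close to Nefm at 15.3 and Elavl4 at 17.1. Elavl4 and Snap25 were the lowest 2 in library 14, at 33.6 and 34.9 per kilobase, too close to order. These places compare levels set by 1 transcript length per gene, and isoforms of other lengths would move them.

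Further neuronal genes followed the same library. Beside the counts in this list and those below, 25.9% of all tested genes were highest in library 14 and 2.83% lay beyond 2-fold. Of 22 other genes for the neuronal cytoskeleton and RNA binding, 20 were highest in library 14 and 9 lay beyond the 2-fold mark, while 0 passed the test of genotype and the median log2 fold change was 0.35, or -0.10 without library 14. Mapt, which encodes the microtubule protein tau, was at 77.3 and 360 in mutant libraries 18 and 14, against 108 and 83.2 in wild-type libraries 15 and 20. Stmn3, a relative of Stmn2, was at 9.53 and 103, against 7.26 and 23.9. Snhg11, a noncoding RNA abundant in neurons, was at 84.9 and 642, against 175 and 105. In each of these 3, picked with their values in view, library 14 was the highest.

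The genes with the smallest p in that list were Kif5a, Nefh and Map2. Kif5a, a neuronal kinesin that carries cargo along axons, was at 527 and 685 in mutant libraries 18 and 14, against 326 and 340 in wild-type libraries 15 and 20. Both mutant libraries were higher and the log2 fold change was 0.85 (SE 0.18), but it did not pass over all genes (limma, unadjusted p = 0.00185, adjusted p = 0.407). Map2, a microtubule protein of dendrites, was at 1186 and 1611, against 1118 and 980. Dcx, the doublecortin of migrating neurons, was at 1263 and 1241, against 1151 and 882, and so was not highest in library 14. Some genes of this list were high in every library, and their source in this tissue was not tested.

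Synaptic genes were described likewise. Of 20 genes for synaptic vesicles and release, 17 were highest in library 14 and 4 lay beyond 2-fold, beside 25.9% and 2.83% of all tested genes. The median log2 fold change of the 20 was 0.19 (-0.17 without library 14), with 0 passing. Cplx1, the complexin that clamps vesicle fusion, was at 5.72 and 93.5 in mutant libraries 18 and 14, against 6.25 and 0.991 in wild-type libraries 15 and 20. Syt1, the calcium sensor of release, was at 90.7 and 190, against 94.3 and 65.6. The vesicle SNARE Vamp2, at 1849 and 2336 against 2255 and 1753, hardly separated library 14. Of 18 neuronal channel and adhesion genes, 14 were highest in library 14 and 4 beyond 2-fold (median log2 fold change 0.20, and 0.10 without library 14, 0 passing). Cntn2, an axonal adhesion molecule, was at 30.5 and 152, against 28.2 and 16.8.

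Genes listed for sensory neurons were split. Of 24 genes listed for trigeminal sensory neurons, 23 were tested (22 pass the filter without library 14). Of those tested 16 were highest in library 14 and 10 lay beyond 2-fold, beside 25.9% and 2.83% of all tested genes. Both counts include Pou4f2, which passes the filter only with library 14 and so lends them no support. The median log2 fold change of the 23 was 0.53, or -0.16 without library 14, with 0 passing. Scn10a, a sodium channel of nociceptors, was at 4.76 and 159 in mutant libraries 18 and 14, against 4.19 and 3.95 in wild-type libraries 15 and 20. The purinergic receptor P2rx3 was at 21.9 and 176, against 10.5 and 17.7. The sodium channels Scn9a, at 13.4 and 170 against 28.6 and 26.5, and Scn11a, at 5.72 and 66.8 against 4.21 and 6.89, had the same order of size. These 4 were picked with their values in view, and in the libraries other than 14 they were at most at 28.6. Other genes of the list that pain-sensing neurons express, also picked with values in view, were not highest there. Calca, the gene of the peptide CGRP, was at 69.6 and 99.4 in mutant libraries 18 and 14, against 118 and 104 in wild-type libraries 15 and 20. Tac1, the gene of substance P, was at 68.2 and 72.8, against 75.6 and 86.3, and the transcription factor Runx1 at 1047 and 909, against 1183 and 1090. Runx1 was thus high in every library, and its source in this tissue was not tested.

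Defining genes of sensory neuron bodies were measured in all libraries. Pou4f1, a transcription factor of sensory ganglia, was at 13.3 and 31.3 in mutant libraries 18 and 14, against 6.28 and 8.92 in wild-type libraries 15 and 20. Both mutant libraries were above both wild-type libraries. Isl1, a transcription factor of sensory and other neurons, was at 166 and 210, against 193 and 245, with library 14 inside the wild-type range. Avil and Prrxl1, both genes of sensory ganglia, had the smallest p among the genes listed that were higher in mutant (log2 fold changes 1.31, SE 0.46, and 1.54, SE 0.61), and neither passed (limma, adjusted p = 0.957 for Avil and 0.9999 for Prrxl1). Runx3 was lower in both mutant libraries, at 335 and 333, against 463 and 472 in wild-type libraries 15 and 20 (limma, log2 fold change -0.48, adjusted p = 0.9007). Like Runx1, Isl1 and Runx3 were high in every library, and their source in this tissue was not tested.

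**Figure D4:**
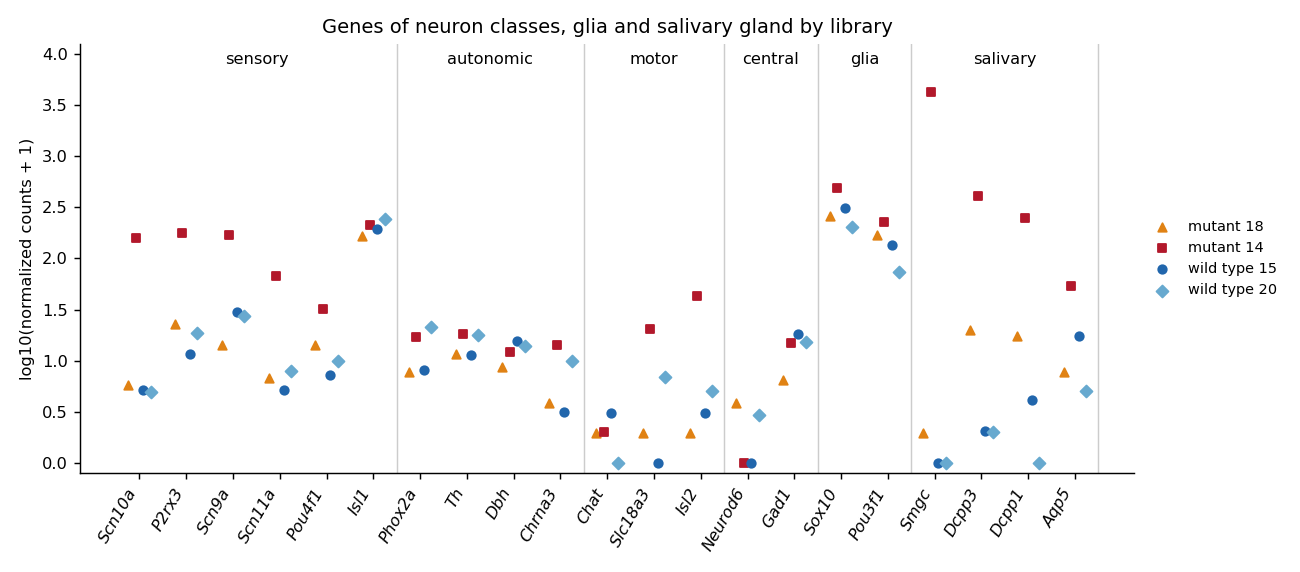
Log10 of normalized counts plus 1 (y axis) for genes of sensory, autonomic, motor and central neurons, glia and salivary gland (x axis), 1 point per library. Mutant library 14 (squares) lies far above the others for the sensory channels and the salivary genes. It is also above them for the motor genes Isl2 and Slc18a3, and within or near them for most autonomic, central and glial genes. The genes drawn are a selection, with the sensory channels picked with their values in view. Calca, Tac1 and Runx1 of the sensory list, which were not highest in library 14, are not drawn.

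Genes of autonomic and motor neurons were listed next. Of 22 autonomic neuron genes, 13 were highest in library 14 and 2 lay beyond 2-fold, beside 25.9% and 2.83% of all tested genes. The median log2 fold change of the 22 was 0.29, or 0.06 without library 14, with 0 passing. The catecholamine enzyme Th was at 10.5 and 17.3 in mutant libraries 18 and 14, against 10.4 and 16.8 in wild-type libraries 15 and 20, so both genotypes held the same range. Gata3, a factor of sympathetic neurons that epithelia also make, was at 306 and 528, against 263 and 149 (limma, log2 fold change 1.02, adjusted p = 0.905). In the motor neuron list the acetylcholine enzyme Chat was at 0.953 and 1.02, against 2.09 and 0, and Mnx1, which defines somatic motor neurons, was listed at 0 in all 4 libraries. The vesicular transporter Slc18a3 was at 0.944 and 19.2, against 0 and 5.99, and Isl2 at 0.955 and 41.6, against 2.05 and 4.03, both highest in library 14.

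Defining genes of the central nervous system were near the floor. The 14 genes listed summed to 178 and 247 normalized counts in mutant libraries 18 and 14, against 229 and 202 in wild-type libraries 15 and 20, most of it from Aldh1l1 and En1. Neurod6, a factor of forebrain neurons, was at 2.86 and 0, against 0 and 1.97. Gad1, the enzyme of GABA synthesis, was at 5.43 and 14.03, against 17.1 and 14.3. Library 14 was the highest for 3 of the 13 tested, a share close to the 25.9% of all genes.

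Schwann cells and satellite glia wrap axons and ganglion cell bodies, and their genes were present in every library. Of 20 tested, 12 were highest in library 14 and 1, Mal, lay beyond 2-fold, with a median log2 fold change of 0.26 (0.21 without library 14) and 0 passing. Over all tested genes 25.9% were highest in library 14 and 2.83% beyond 2-fold, so 1 of 20 beyond it says little about glia. Sox10, the defining transcription factor of neural crest glia, was at 259 and 486 in mutant libraries 18 and 14, against 311 and 201 in wild-type libraries 15 and 20. Pou3f1, a factor of Schwann cells that keratinocytes also make, had the smallest p (168 and 229, against 134 and 72.5; limma, log2 fold change 0.99, adjusted p = 0.924).

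Growth factors and guidance cues of the target tissue were listed too. Of these, 1 was higher and 2 were lower in both mutant libraries than in both wild-type ones, beside 27.4% of all tested genes that did not overlap. Of 19 tested ligands and cues, 9 had a log2 fold change above 0, and the median was -0.01. Library 14 was the highest for 8, beside 25.9% of all tested genes, with 0 beyond 2-fold and 0 passing. Sema3a, a repellent that keeps nerve fibres out of early tooth germs, was at 2423 and 1698 in mutant libraries 18 and 14, against 2300 and 2392 in wild-type libraries 15 and 20. The genes with the smallest p were Sema3b, Artn and Sema3c, with log2 fold changes of -0.31, -0.92 and 0.24, and none passed (limma, adjusted p = 0.9999 each).

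Genes of other cells were also high in library 14 or differed in both mutant libraries. Smgc, a secretory gene of the developing salivary gland, was at 0.953 and 4219 normalized counts in mutant libraries 18 and 14, and wild-type libraries 15 and 20 both listed it at 0. Dcpp3 was at 19.1 and 408, against 1.05 and 0.981, Dcpp1 at 16.2 and 249, against 3.16 and 0, and the water channel Aqp5 at 6.68 and 52.8, against 16.5 and 4.001. Of the 14 salivary genes 12 were tested, and only 6 passed the filter without library 14, so no count of them is given. Prom2, Ltf and Kcnn4, which were high in every library, were at 532 and 882, 150 and 201, and 120 and 120.3 in mutant libraries 18 and 14, against 478 and 377, 214 and 99.5, and 121 and 142 in wild-type libraries 15 and 20. All 10 keratinocyte genes were highest in library 14 (sums of 151175 and 230342 in mutant libraries 18 and 14, against 90525 and 86770 in wild-type libraries 15 and 20), 1 of them beyond 2-fold. Their median log2 fold change was 0.96, and 0.74 with all 10 above 0 without library 14. In both mutant libraries 8 of the 10 were higher than in both wild-type libraries, as were 13.4% of all tested genes. Of the 12 skeletal muscle genes 0 were highest in library 14 (sums of 167147 and 89680, against 147391 and 110772), and of the 9 osteoblast genes 0 were (sums of 534536 and 499032, against 658969 and 650778), while 7 of the 9 were lower in both mutant libraries. None of the genes in these 3 lists passed (limma), with 8, 0 and 6 at an unadjusted p under 0.05 among keratinocyte, muscle and osteoblast genes. Of all tested genes 25.9% were highest in library 14 and 2.83% lay beyond 2-fold. At an unadjusted p under 0.05 (limma) there were 4.27%, and 27.4% did not overlap between genotypes in either direction.

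Merkel cells, touch receptors of the epithelium that share synaptic genes with neurons, were covered by 9 genes. Of these 6 were highest in library 14, beside 25.9% of all tested genes. The sum of the 9 was 1067 and 2272, against 1098 and 1258, most of it from Krt8 and Krt18, which other simple epithelia make too. The defining factor Atoh1 was at 47.5 and 27.5, against 17.6 and 24.0, and Krt20 at 18.1 and 16.2, against 4.21 and 10.8. For both of these library 18 and not library 14 was the highest. Whether salivary tissue, other epithelium or the makeup of the dissected piece had a part in the levels of the neuronal genes was not tested.

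**Figure D5:**
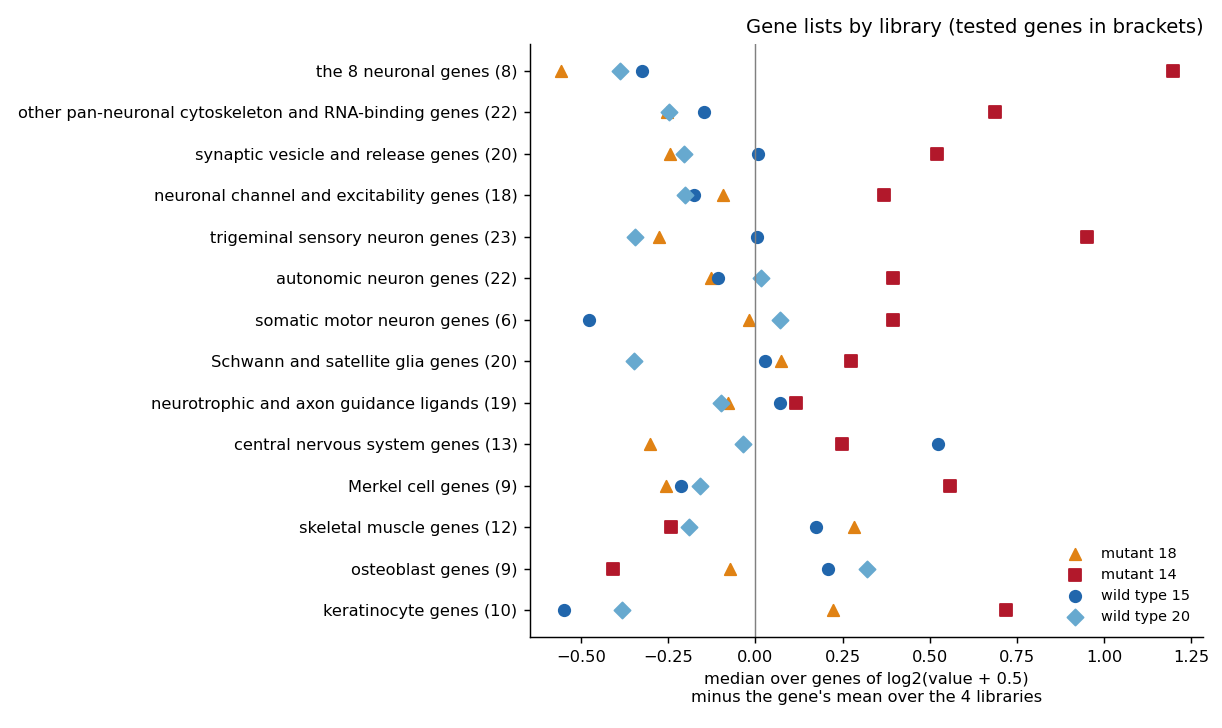
Median over the tested genes of each list of log2(value + 0.5) minus the gene's mean over the 4 libraries (x axis), 1 point per library, with lists down the page and salivary genes left out. Mutant library 14 (squares) is the highest point in the neuronal, sensory, autonomic and motor lists. It is also the highest for the glia, ligand and guidance, Merkel cell and keratinocyte lists. For central nervous system genes it is not the highest, and for osteoblast and skeletal muscle genes it is the lowest.

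The genes most like the 8 in pattern were sought among 13122 tested genes with a mean of at least 50, by the distance over the 4 libraries between their centred log2 profile and the mean profile of the 8. The 6 nearest were Fetub, Krt19, Atp2a3, Upk3bl, Mapt and Bglap3, at distances of 0.17 to 0.29. The 8 genes themselves were at 0.41 (Snap25) to 1.71 (Prph) from their own mean, while the 6 were chosen for their small distance. Mapt is a neuronal gene and was on the fixed list, while Krt19 encodes a keratin of simple and glandular epithelia. Krt19 was at 369 and 1281 in mutant libraries 18 and 14, against 434 and 422 in wild-type libraries 15 and 20. With 4 libraries, 1 of them apart, the likeness describes little more than a high value in library 14.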

How the data were processed

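RNA of 4 libraries was analysed from 1 deposited table with 1 signal value per gene and library, a normalized count made by the authors. The build was mm10 and the tool DESeq2, per the submitters' processing notes. For the aligner, counting program and annotation, the sources used here give nothing. Totals were nearly equal (22134483 to 22578580). Only 32.0% to 34.6% of the values above 0 came within 0.1 of a whole multiple of each library's commonest low value, so whole reads were not recovered and no count model was run.

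Values were transformed to log2(value + 0.5), which understates changes of low genes. Genes with a mean of at least 1 were kept, and genotype was fitted over all 17979 in R 4.3.3 (limma 3.58.1, variances moderated along a mean-variance trend), adjusting p by Benjamini-Hochberg with a threshold of 0.05. Fold changes are mutant minus wild type. The fit was tested on simulated data with an equal spread set for every library. That test cannot show how the fit treats a library that stands apart from the rest. Sample codes differ between genotypes, so libraries were not paired.

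The 8 genes and the 14 other lists were chosen with earlier results of these data known. The rule for named genes took the 8 genes, the 3 with the smallest p in each list, defining genes of each cell type, and the 6 nearest in pattern. Some that it takes are covered only by their list's counts or are not reported here. Alternatives covered pseudocount, filter, scaling, variance model and each library left out. Gene positions and transcript lengths are from GENCODE M21 (GRCm38, the assembly that mm10 denotes).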

Additional observations from a re-analysis of the deposited data

How the results depend on the processing

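None of the 8 genes passed under any of the 12 alternatives, where their smallest adjusted p was 0.523. With pseudocounts of 1 or 0.1, no filter, a mean of at least 10, equal library totals, TMM factors (trimmed mean of M values), no variance trend or robust moderation, every fold change kept its sign and their median stayed between 0.88 and 0.90. Genes called over the whole table numbered 2 as reported, 4 with pseudocount 1 and with robust moderation, and 1 with no filter and with no trend. With 1 library left out they numbered 0 without either mutant library, 3 without wild-type library 15 and 6 without wild-type library 20. The left-out libraries moved the 8 genes more. Their median ranged from -0.30 (without mutant library 14) to 1.64 (without mutant library 18), the number above both wild-type libraries from 2 to 8, and the number below them from 0 to 3. Log2 fold changes ranged from -0.35 to 0.46 for Tubb3, -0.80 to 3.30 for Prph, -0.32 to 2.50 for Nefl, -0.27 to 3.27 for Nefm and -0.46 to 1.59 for Snap25, with the lowest always without library 14. They kept their sign for Stmn2 (0.19 to 1.19), Gap43 (0.05 to 0.69) and Elavl4 (0.72 to 1.69). The cause of these shifts was not tested. No paired analysis was possible because the genotypes share no sample code. Counting error limits the values of genes with few counts.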
